A study of Homo sapiens with 15 samples.

Results

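The regions described here are stretches of chromatin that were called accessible in every SETD2 knockout (KO) library and in every library of KO cells given SETD2 back, and in no wild-type (WT) library. They number 6316 of 295008 consensus regions, or 2.14%. ATAC-seq peaks on chromosomes 1 to 22, X and Y from all 15 lists were merged where they shared 1 bp or more, and merged regions with a peak in 2 or more libraries formed the consensus. A member has a peak in all 6 KO and all 6 rescue libraries and in 0 of 3 WT libraries. The members were thus chosen by the peak calls of all 15 libraries, and that pattern is a description here and carries no test.

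All libraries came from RPTEC, a human renal proximal tubule epithelial line immortalised with hTERT and grown under G418. There were 5 groups of 3 libraries each. WT is the parental line. KO1 and KO2 are 2 CRISPR/Cas9 clones cut in SETD2 exon 3. Rescue1 and Rescue2 are 2 single-colony clones of KO cells that received full-length SETD2 with a 3xFLAG tag from a lentivirus and were selected with blasticidin. Each KO and each rescue group is therefore 1 clone. Both rescue clones carry, in the names of their deposited lists, the clone code of KO2, while the sample labels do not state their parent. Anything that the KO-derived clones share apart from SETD2 cannot be told apart from an effect of SETD2 loss in these regions. The labels do not say that the 3 libraries of a group came from separate cultures, so p-values measure the spread between these libraries, which may be technical.

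SETD2 places 3 methyl groups on lysine 36 of histone H3 along transcribed genes, and cells without it lose that mark. In ATAC-seq the Tn5 transposase cuts open DNA, so a peak marks a promoter, enhancer or other site where nucleosomes are loose or absent. Such sites carry short recognition sequences for transcription factors, among them AP-1 (the FOS and JUN proteins), the POU octamer factors, C/EBP, NF-kB, and the zinc finger repressors SNAI and ZEB that bind an E-box during epithelial to mesenchymal transition. A region with no peak is one below the calling threshold and is not shown to be closed.

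The lists held between 196969 and 265193 peaks (196969 to 212373 in WT, 204028 to 254650 in KO, 208067 to 265193 in rescue). No read counts were used, so sequencing depth is unknown. The promoters of EPCAM, KRT8, KRT18, PAX8, PAX2, CDH16, CDH6 and CUBN, markers of epithelium and kidney tubule, had a peak in all 15 libraries. CDH1 had a promoter peak in 3 of 3 WT, 4 of 6 KO and 0 of 6 rescue libraries, and LRP2 in only 1 KO library. Of the markers of other cell types, PTPRC, CD79A, TEK, APOA1 and RBFOX3 had none, CDH5 and SYP had one in every library, and CD3E, PECAM1 and ALB were called in some WT or KO libraries and in no rescue library. The SETD2 promoter had a peak in all 15 libraries, which checks neither the edit nor the transgene. Of 24 consensus regions over SETD2 and 10 kb either side, 1 was a member, an intronic region at chr3:47082587-47082895.

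The sequences below are 201 bases of the hg38 plus strand, centred on the mean summit of a member, and matches to a recognition sequence are in capitals. The first set holds the 3 strongest members, which stood near the top of every KO and rescue list and each carry an AP-1 sequence (TGAGTCA or its reverse complement TGACTCA).
chr4:116839909-116840109, in an intron of 2 long non-coding RNA genes: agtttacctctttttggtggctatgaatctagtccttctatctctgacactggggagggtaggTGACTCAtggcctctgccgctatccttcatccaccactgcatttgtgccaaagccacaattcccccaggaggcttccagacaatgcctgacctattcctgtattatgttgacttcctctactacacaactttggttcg
SPOCK3 intron, chr4:167100194-167100394: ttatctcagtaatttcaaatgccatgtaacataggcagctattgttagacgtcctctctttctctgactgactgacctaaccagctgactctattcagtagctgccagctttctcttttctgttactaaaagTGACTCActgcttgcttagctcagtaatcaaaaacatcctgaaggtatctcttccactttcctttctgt
ERC1 intron, chr12:1282074-1282274: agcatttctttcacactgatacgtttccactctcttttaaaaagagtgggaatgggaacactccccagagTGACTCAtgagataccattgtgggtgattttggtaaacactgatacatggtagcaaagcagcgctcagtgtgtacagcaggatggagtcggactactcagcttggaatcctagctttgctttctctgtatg
The second set holds the 2 members with the largest falls of strength from KO to rescue, with AP-1 in capitals.
Fall, TRIB2 the nearest coding start, chr2:12970943-12971143: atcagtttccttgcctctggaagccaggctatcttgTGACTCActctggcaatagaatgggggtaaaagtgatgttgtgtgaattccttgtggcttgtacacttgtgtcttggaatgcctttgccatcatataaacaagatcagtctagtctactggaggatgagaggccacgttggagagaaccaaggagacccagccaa
Fall, DNAJB9 the nearest coding start, chr7:109003845-109004045: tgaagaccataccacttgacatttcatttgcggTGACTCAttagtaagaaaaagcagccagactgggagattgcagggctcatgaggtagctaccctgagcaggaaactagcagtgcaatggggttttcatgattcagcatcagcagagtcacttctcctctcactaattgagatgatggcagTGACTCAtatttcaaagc
The third set holds the largest fall among the members with a POU octamer (ATGCAAAT), a C/EBP sequence (TTGCNNAA) and an NF-kB sequence, each in capitals in its own line, because the comparison of KO with rescue by sequence turns on these 3. Other matches in these lines are not marked: the octamer member also holds a C/EBP sequence, and the C/EBP member also holds AP-1 and RUNX sequences.
POU octamer, MIR3945HG promoter, chr4:184851209-184851409: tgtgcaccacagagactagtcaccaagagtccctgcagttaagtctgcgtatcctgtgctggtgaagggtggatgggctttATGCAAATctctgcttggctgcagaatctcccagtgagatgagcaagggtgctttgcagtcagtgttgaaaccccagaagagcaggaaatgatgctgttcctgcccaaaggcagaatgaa
C/EBP, intergenic, chr12:83573781-83573981: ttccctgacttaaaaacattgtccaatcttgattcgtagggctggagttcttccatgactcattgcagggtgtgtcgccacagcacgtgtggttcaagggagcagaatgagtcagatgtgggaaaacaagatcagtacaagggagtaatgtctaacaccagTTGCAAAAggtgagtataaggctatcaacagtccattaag
NF-kB, intergenic, chr12:30197524-30197724: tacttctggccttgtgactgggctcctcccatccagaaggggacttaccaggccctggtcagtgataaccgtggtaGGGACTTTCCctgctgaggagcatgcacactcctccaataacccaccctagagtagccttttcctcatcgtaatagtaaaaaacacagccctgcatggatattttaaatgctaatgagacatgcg
The last set holds a rise with the E-box of SNAI and ZEB (CAGGTG), a rise with AP-1, and the promoter of GHR, the growth hormone receptor, where AP-1 lay 4 bases from the summit.
E-box, FAM53B intron, chr10:124693832-124694032: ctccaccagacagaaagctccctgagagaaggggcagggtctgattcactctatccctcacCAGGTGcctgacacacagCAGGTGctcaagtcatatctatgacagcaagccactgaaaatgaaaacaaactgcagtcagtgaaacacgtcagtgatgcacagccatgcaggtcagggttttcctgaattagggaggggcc
AP-1, LANCL2 the nearest coding start, chr7:55325534-55325734: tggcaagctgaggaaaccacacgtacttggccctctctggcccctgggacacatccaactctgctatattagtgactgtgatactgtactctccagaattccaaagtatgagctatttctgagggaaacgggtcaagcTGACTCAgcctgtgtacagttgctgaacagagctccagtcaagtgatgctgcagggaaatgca
AP-1, GHR promoter, chr5:42547260-42547460: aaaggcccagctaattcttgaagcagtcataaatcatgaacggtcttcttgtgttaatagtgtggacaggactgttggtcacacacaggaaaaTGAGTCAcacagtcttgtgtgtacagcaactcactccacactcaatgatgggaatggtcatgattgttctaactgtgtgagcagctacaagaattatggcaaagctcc

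The members made up 44.7% of the 14118 regions gained in KO (peak in 6 of 6 KO and 0 of 3 WT libraries, 4.79% of the consensus) and 47.8% of the 13204 gained in rescue against WT (4.48%). In the other direction 7308 regions (2.48%) were lost in KO against WT. By contrast 2413 regions gained in KO had no peak in any rescue library and are called reversed. Members were a median of 348 bp wide (quartiles 256 and 479 bp), wider than the reversed regions (257 bp) and narrower than the 104967 regions with a peak in all 15 libraries (472 bp). A region spans all peaks merged into it, so its width can grow with the number of libraries that have a peak there. These widths are thus not like for like. The summit of a member was steady: its SD over the 12 KO and rescue libraries had a median of 24.7 bp, and it was 50 bp or less in 5344 members (84.6%). Most members lay well away from any WT peak, with a median distance of 5540 bp and no WT peak within 500 bp of 5706 (90.3%). A WT peak lay within 100 bp of 55 members, so there the boundary of the called peak decides membership.

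Just outside the rule stood 1421 regions that lacked 1 KO library, 1353 that lacked 1 rescue library and 3110 that had a peak in 1 WT library. The median of their mean strength, the percentile of fold enrichment explained in the next paragraph, was 40.3, 42.0 and 53.5, beside 56.6 for the members. The rule was also rebuilt without 1 library at a time and the left-out library was read. A left-out WT library had a peak in 19.2%, 11% and 11.6% of the regions so chosen, against 63.1%, 58.5% and 58.9% of all consensus regions. A left-out KO or rescue library had one in 92.7% to 99.4% of them, against 60.9% to 76.8% of the consensus. The regions were merged from all libraries, and the other libraries of the same group stayed in the rule. These shares thus describe the calls and carry no test. When a whole clone was left out, all 3 of its libraries had a peak in 69.5% of the regions for KO1, 91.8% for KO2, 78.4% for Rescue1 and 86.2% for Rescue2. None of the 3 did in 10.4%, 0.756%, 7.61% and 1.81%. The share with all 3 peaks was thus lowest for KO1 and highest for KO2. Both rescue clones carry the clone code of KO2, so the rule without KO2 was not independent of it. These shares are descriptions as well.

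Strength was the rank of fold enrichment at the peak's summit among all peaks of the same library, from 0 for the weakest to 100 for the strongest. The rule asks for a peak in KO and rescue alike and does not use strength, although a member that sank below the calling threshold in any rescue library would have dropped out. The median strength of the members was 55.2, 55.1 and 57.8 in the KO1 libraries and 60.4, 58.3 and 65.9 in the KO2 libraries. It was 57.6, 55.6 and 56.5 in Rescue1 and 64.4, 59.8 and 54.0 in Rescue2. The KO and rescue libraries overlapped: the mean was 58.8 ± 4.01 in KO and 58.0 ± 3.68 in rescue (SD, n = 6 each), a difference of -0.772 percentile points that is smaller than either SD. Both highest medians came from the longest lists, KO2 replicate 3 with 254650 peaks and Rescue2 replicate 1 with 265193, and without KO2 replicate 3 the difference was 0.648. Members were moderate peaks. Regions with a peak in all 15 libraries had medians of 70.6 to 76.8 in the same libraries, and members stood 14.0 ± 2.42 points below them in KO and 15.5 ± 1.88 points below in rescue (SD, n = 6). Only 6.21% to 11.9% of the members reached percentile 90 of a list, and 71 did so in all 12 libraries.

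**Figure D1:**
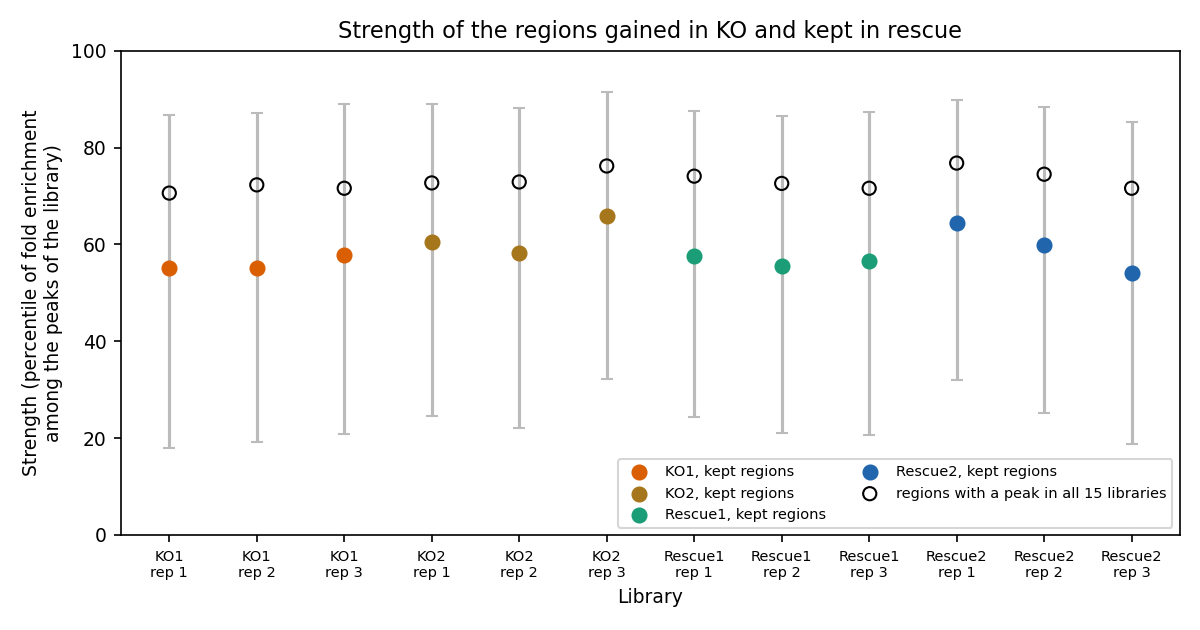
Strength of the kept regions in each KO and rescue library, as the percentile of fold enrichment among the peaks of that library (vertical axis, 0 to 100). Filled points are medians over 6316 regions with bars from the 10th to the 90th percentile, open circles are medians of the regions with a peak in all 15 libraries, and the kept regions sit between 54.0 and 65.9 in both groups of clones, below every open circle.

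The strongest member, at chr4:116839882-116840413, ranked between 99.8 and 100 in KO and between 99.8 and 100 in rescue libraries. The next, at chr4:167100080-167100580, lies in an intron of SPOCK3, which encodes a secreted proteoglycan of the testican family, and ranked 99.6 to 100 in KO and 99.7 to 100 in rescue. A region in an intron of ERC1, a scaffold protein, at chr12:1282058-1282360 ranked 97.3 to 100 and 99.2 to 100. These 3 regions were among the most accessible sites of each clone, and the nearest WT peak was 85522, 74178 and 22829 bp away. The other 7 of the top 10 were an intergenic region at chr7:10802572-10803013, an intergenic region whose nearest coding start is that of DSC3, an exonic region of PTGR2 (a prostaglandin reductase), and intronic regions of SLC27A6 (a fatty acid transport protein), UNC5D (a netrin receptor), FMN2 (an actin-nucleating formin) and SNTG1 (a syntrophin). Of the 10, only the one at chr7:10802572-10803013 passed the test between rescue and KO described next (99.6 to 99.9 in KO, 97.4 to 99.7 in rescue, difference -0.53, SE 0.165, limma adjusted p = 0.0366). AP-1 sequences lay within 100 bp of the summit in 7 of the 10.

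Among the 8 strongest members at promoters of protein-coding genes, GHR stood apart. Its region at chr5:42547180-42547491 ranked 99.7, 99.3 and 99.8 in KO1, 99.8, 98.1 and 100 in KO2, 96.3, 96.3 and 97.3 in Rescue1, and 90.9, 85.4 and 75.6 in Rescue2. All 6 rescue libraries were below all 6 KO libraries (difference -1.53, SE 0.286, limma adjusted p = 0.00212), and within rescue the 3 Rescue2 libraries were below the 3 Rescue1 libraries. The promoter of ARHGAP32, a GTPase-activating protein, ranked 72.2, 87.9 and 88.1 in KO1, 98.4 to 99.5 in KO2 and 92.7 to 99.9 in rescue, so its low values were those of KO1 (difference 0.71, SE 0.395, adjusted p = 0.231). The highest promoter member was that of GPR141, an orphan receptor, at 94.5 to 97.8 in KO and 96.1 to 99.7 in rescue (adjusted p = 0.0677). The promoters of INMT (a methyltransferase), PRKRA (an activator of the kinase PKR), DGKG (a diacylglycerol kinase), DOCK5 (an activator of Rac) and SLITRK6 (a neuronal membrane protein) had mean strengths of 91.5 to 93.1 and adjusted p of 0.06 to 0.931. Thus 1 of these 8 promoters passed the test.

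To ask which members changed between KO and rescue, the ranks of strength in each library among the 118644 regions with a peak in all 12 KO and rescue libraries were turned into normal scores, in which 1 unit is 1 SD of that library's ranks, and fitted together in limma with Benjamini-Hochberg adjustment at 0.05. Of the 6316 members, 920 (14.6%) were weaker in rescue, where 8.6% of all tested regions were. In the other direction 662 members (10.5%) were stronger, against 9.42% of all tested regions. The median difference was -0.03 over the members and -0.02 over all regions tested, while the 10th to 90th percentiles ran from -0.83 to 0.68 and from -0.5 to 0.55. The share of weaker members was above that of all tested regions, the share of stronger members was near it, and the members shifted little on balance. All 6 rescue libraries were below all 6 KO libraries in 404 members (6.4%, all tested 3.79%) and above them in 243 (3.85%, all tested 3.93%). With KO2 alone as KO, 567 members were weaker (8.98%, all tested 3.71%) and 373 stronger (5.91%, all tested 4.44%). With Rescue2 alone as rescue 426 were stronger (6.74%, all tested 5.47%). The remaining 4734 members did not pass, which does not show that they were equal. Regions with a peak in all 12 of these libraries and in 1 or 2 WT libraries were weaker in rescue in 11.3% and stronger in 11%. Weaker members were spread over features: 16.9% of intergenic, 14.0% of intronic, 12.2% of promoter and 10.8% of exonic members were weaker, beside 10.1%, 8.25%, 7.89% and 7.34% of all regions tested in those features.

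The clones of 1 kind also differed from each other. Between KO1 and KO2, 475 members (7.52%, all tested 3.13%) differed in the same fit with 4 clones as groups, and between Rescue1 and Rescue2, 520 members (8.23%, all tested 2.77%). Against KO2 alone, 851 members were lower and 508 higher in Rescue1 (21.5%, all tested 10.8%), and 615 were lower and 354 higher in Rescue2 (15.3%, all tested 7.25%). Against KO1, 1020 were lower and 894 higher in Rescue1 (30.3%, all tested 19.1%), and 942 were lower and 826 higher in Rescue2 (28%, all tested 18.9%). The count was thus larger against KO1 than against KO2 for both rescue clones. With 1 rescue clone at a time against all 6 KO libraries, 862 members were weaker in Rescue1 (13.6%, all tested 6.46%) and 715 in Rescue2 (11.3%, all tested 4.84%). The stronger members numbered 539 (8.53%, all tested 6.05%) and 426 (6.74%, all tested 5.47%). Those 2 comparisons share their KO libraries.

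The largest fall was at chr2:12970878-12971247, in an intron of a long non-coding RNA gene. It ranked 97.9, 93.9 and 96.5 in KO1, 97.9, 96.9 and 99.9 in KO2, 47.7, 57.0 and 44.9 in Rescue1, and 42.0, 5.5 and 37.7 in Rescue2. No rescue library came near a KO library there (difference -2.96, SE 0.296, limma adjusted p = 1.81e-05). The intergenic region at chr7:109003775-109004099 ranked 97.0 to 99.7 in KO (median 98.1) and 21.4 to 59.5 in rescue (median 44.6), a difference of -2.94 (SE 0.212, adjusted p = 1.85e-06). A region at chr10:64209566-64210009 ranked 99.3 to 99.8 in KO (median 99.6) and 43.8 to 76.8 in rescue (median 61.6), a difference of -2.88 (SE 0.148, adjusted p = 1.13e-07). The next were chr3:118080759-118081239 (difference -2.84, adjusted p = 5.25e-06) and an intron of LRRC4C, a synaptic netrin-G ligand, at chr11:40170026-40170465 (difference -2.79, adjusted p = 1.07e-05). In all 5 falls both rescue clones were below both KO clones, and all 5 held an AP-1 sequence near the summit. Even so each kept a called peak in all 6 rescue libraries, as the rule asks.

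Among the 5 largest rises, the first went with the KO clone. At chr2:184154491-184154815 the strength was 43.5, 15.6 and 33.5 in KO1, 93.6 to 94.0 in KO2 and 98.9 to 99.8 in rescue, so KO2 lay close to the rescue clones and KO1 did not (difference 2.47, SE 0.461, limma adjusted p = 0.00205). In the other 4 both KO clones were below both rescue clones. The intergenic region at chr7:55325417-55325789 ranked 17.9 to 48.2 in KO (median 39.8) and 88.1 to 96.1 in rescue (median 91.9), a difference of 2.21 (SE 0.167, adjusted p = 2.11e-06). An intron of NEGR1, a cell adhesion protein of the IgLON family, at chr1:71861122-71861488 ranked 24.5 to 51.9 and 83.9 to 97.6 (difference 2.1, SE 0.189, adjusted p = 8.52e-06). An intron of FAM53B at chr10:124693723-124694260 ranked 18.6 to 38.4 and 76.6 to 89.7 (difference 1.97, SE 0.145, adjusted p = 2.03e-06). The last was of another kind: an exon of TNFAIP2, a gene induced by tumour necrosis factor, at chr14:103137021-103137308 ranked 0.0 to 0.2 in KO and 18.4 to 38.8 in rescue (difference 2.17, SE 0.145, adjusted p = 1.7e-06), with a WT peak 495 bp away. It was a peak of below-median strength in all 12 libraries. Of the 5 rises, 4 held an AP-1 sequence, as did all 5 falls.

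**Figure D2:**
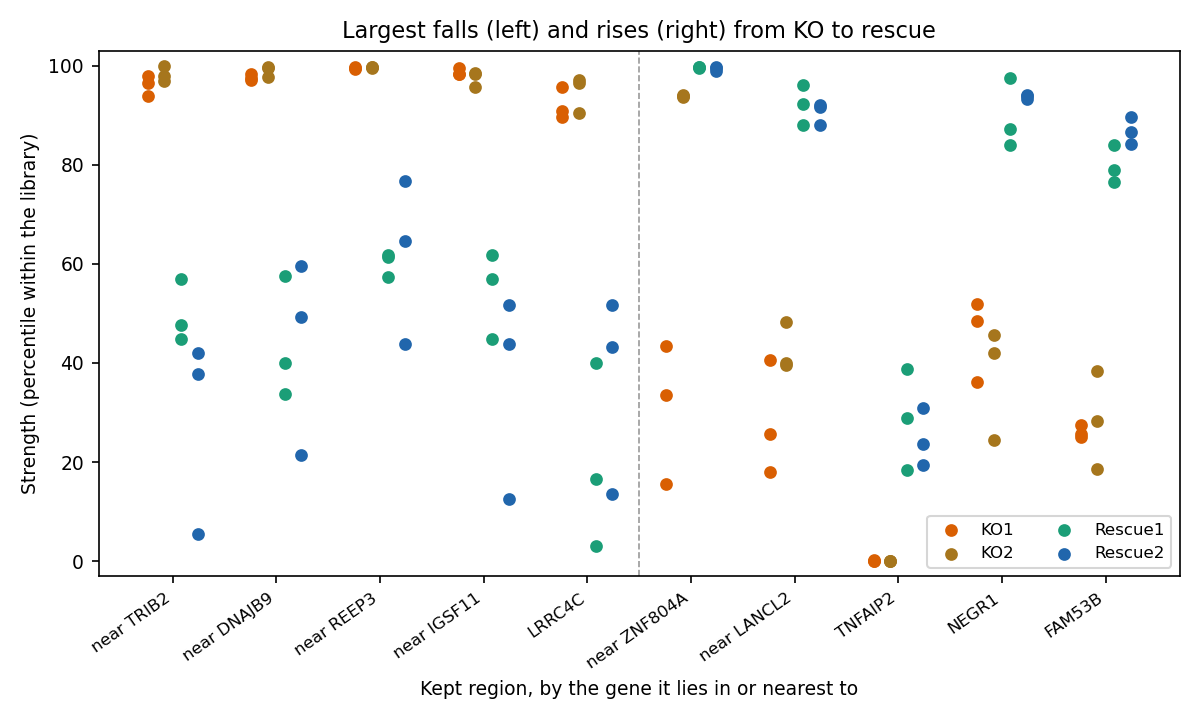
Strength (percentile within the library, vertical axis) of the kept regions with the 5 largest falls, left of the dashed line, and the 5 largest rises, right of it, 1 point per library coloured by clone. In every fall the 6 KO points lie above the 6 rescue points, and in the region near ZNF804A the 3 KO1 points at 15.6 to 43.5 lie apart from the KO2 points at 93.6 to 94.0.

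Members were distal. Of the 6316, 3344 (52.9%) lay in introns, 2021 (32.0%) were intergenic, 510 (8.07%) touched an exon and 441 (6.98%) a promoter, taken as 1000 bp before to 100 bp after a GENCODE transcript start. Promoters made up 22.7% of the regions with a peak in all 15 libraries, 13.8% of the consensus, 8.98% of the regions with a peak in all 12 KO and rescue and in 1 or 2 WT libraries, and 6.09% of the reversed regions. The members' share was thus close to that of other regions whose peaks varied between libraries and below that of constant ones. The median distance to the nearest protein-coding transcript start was 36493 bp, beside 14555 bp for regions with a peak in all 15 libraries and 88639 bp for the reversed regions, and 32.1% of members were over 100 kb from one. Inside genes, the mark laid down by SETD2 is known to rise along the body of active genes. Members within coding genes were spread evenly, with 19.1%, 20%, 19.6%, 21.0% and 20.4% in 5 successive parts of equal length from start to end. All consensus regions gave 21.1%, 20.6%, 19.9%, 19.3% and 19%. The genes that held members were longer, with a median of 213.0 kb over members against 177.0 kb over consensus regions. It was 324.0 kb over reversed regions and 192.0 kb over regions with a peak in all 12 and in 1 or 2 WT libraries. Greater length was thus not particular to members. For members, these values and the 5 parts cover 2773 regions, away from promoters and in coding genes of 20 kb or more. By chromosome the share of consensus regions that were members was highest on chromosome 4 (540 of 16214, 3.33%) and lowest on chromosome 19 (75 of 6917, 1.08%).

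Of 17942 protein-coding genes with a consensus region, 2194 held a member and 69 held 5 or more. TENM3, which encodes a teneurin, a large cell adhesion receptor, held most, with 26 members among 80 consensus regions (32.5%). It was followed by LRP1B, an LDL receptor-related protein, with 22 of 87 (25.3%) and EYS, an extracellular matrix protein of photoreceptors, with 19 of 75 (25.3%). All 3 are very long genes, of 659.0, 1900.0 and 1990.0 kb, and 25, 22 and 18 of their members were intronic. The next genes were SGCD (delta-sarcoglycan, 15 of 70), OPCML (an IgLON protein, 15 of 75), MAGI2 (a junction scaffold, 15 of 119), CNTN5 (a contactin, 13 of 51), NCAM1 (the neural cell adhesion molecule, 12 of 51) and NTM (another IgLON protein, 10 of 163). They were joined by ELMO1 (an activator of Rac, 14 of 81), FMN2 (13 of 58), SLC27A6 (10 of 29), STPG2 (10 of 42), FRMD4A (a polarity scaffold, 10 of 153) and ADAMTS17 (a secreted metalloprotease, 9 of 31). The lowest shares of these 15 genes were 6.54% over FRMD4A and 6.13% over NTM, genes of 818.0 and 966.0 kb.

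**Figure D3:**
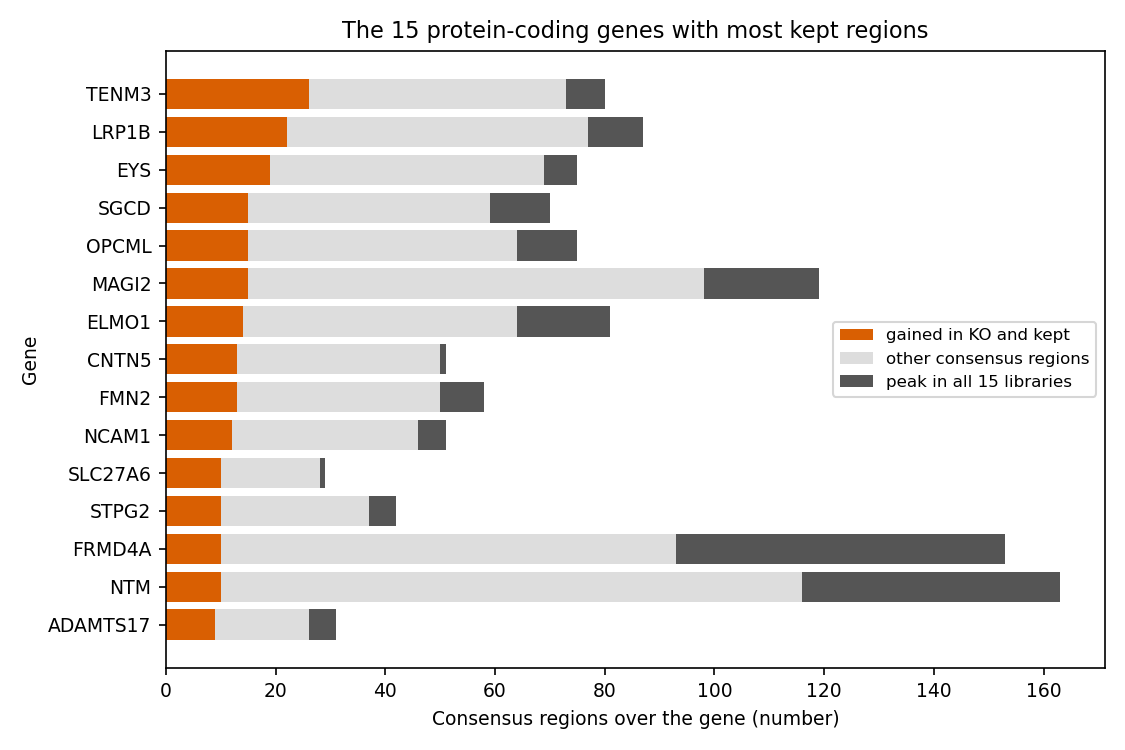
Number of consensus regions over each of the 15 protein-coding genes with most kept regions (horizontal bars from 0), split into kept regions, regions with a peak in all 15 libraries and the others. TENM3 holds 26 kept among 80 regions, whereas FRMD4A and NTM hold 10 kept among 153 and 163.

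Judged by share among genes with 10 or more consensus regions, KCNU1, a potassium channel of sperm, led with 8 of 15 (53.3%). SLC27A6 had 34.5%, ACSS3 (an acyl-CoA synthetase of mitochondria) 33.3%, TENM3 32.5%, BRD7 (a subunit of the PBAF chromatin remodeller) and NKD1 (an antagonist of Wnt signalling) 30% each, CDH11 29.2%, ADAMTS17 29.0%, EVA1C (a slit receptor) 28.6% and SPOCK3 27.6%. The BRD7 and NKD1 shares rest on 3 members each. Within these genes the called members went mostly or only down in some and both ways in others. Of the 22 LRP1B members 7 were weaker and 1 stronger in rescue by the limma test, and of the 26 TENM3 members 4 and 2. The numbers were 4 and 3 of 15 for OPCML, 5 and 0 of 10 for STPG2 and 3 and 0 of 19 for EYS. They were 2 and 0 of 13 for CNTN5, and 0 and 0 for NTM and CDH11. Over all members 14.6% were weaker and 10.5% stronger, and over all tested regions 8.6% and 9.42%. The counts per gene are small and were not tested against these shares. In NCAM1 the strongest member fell (KO 91.4 to 98.3, rescue 64.7 to 87.4, difference -1.24, limma adjusted p = 0.000882) and the second strongest rose (KO 57.2 to 83.3, rescue 87.7 to 93.9, difference 0.86, adjusted p = 0.00178). They lie in the same gene at chr11:112977715-112978151 and chr11:113045228-113045529. The strongest ACSS3 member, at chr12:81224667-81224964, rose from 42.0 to 59.6 in KO to 69.5 to 96.2 in rescue (difference 1.6, adjusted p = 0.000382).

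CDH11 encodes a cadherin of mesenchymal cells and was the listed mesenchymal gene with most members, 7 of the 24 consensus regions within its span and 10 kb either side. Its strongest member, at chr16:65070846-65071174, ranked 94.4 to 99.8 in KO and 90.9 to 98.7 in rescue. The second, at chr16:65044737-65045228, ranked 79.7 to 95 and 91.0 to 97.4, and the third, at chr16:64983900-64984383, ranked 85.7 to 93.7 and 78.0 to 92.1. The first 2 are intronic and the third is annotated as a promoter, not one of a protein-coding gene. These 3 sites were strong in all 12 libraries and lay 46816 to 133607 bp from any WT peak. The member at the promoter of CDH11 itself, at chr16:65122899-65123748, was weaker (KO 18.3 to 45.2, rescue 24.8 to 38.9) and lay 840 bp from a WT peak. None of the 7 passed the test between KO and rescue, with adjusted p of 0.0959 to 0.843, and only 1 of the 24 regions had a peak in all 15 libraries.

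Over the lists of genes relevant to the kidney and to epithelial to mesenchymal transition (EMT), the share of members ranged from 0 to 3.32%. Each share is of the consensus regions over the genes and 10 kb either side, to be read against 2.14% for all consensus regions. Mesenchymal genes held 17 of 512 (3.32%), EMT factors 4 of 144 (2.78%), stemness and injury genes 4 of 150 (2.67%), nephron progenitor genes 2 of 90 (2.22%), cytokines and growth factors 8 of 408 (1.96%), SOX and POU factors 5 of 260 (1.92%), proximal tubule genes 6 of 346 (1.73%), epithelial genes 4 of 251 (1.59%), interferon genes 2 of 186 (1.08%) and HOX genes 0 of 215. The mesenchymal share rested on CDH11 with 7 and LOXL2, a lysyl oxidase, with 4. Only 7 of the 27 mesenchymal genes had a member, and VIM, FN1, CDH2 and COL1A1 were among those with none. The EMT factors with a member were PRRX2 (2, mean strengths 61.9 and 59.0), ZEB1 (41.4) and ZEB2 (45.5), while SNAI1, SNAI2, TWIST1, TWIST2 and PRRX1 had none. SOX5, a SOX family factor, held 4 members with mean strengths of 27.6 to 90.7. At WT1, the nephron progenitor and podocyte factor, a member at chr11:32392082-32392622 touched the promoter of a transcript that starts inside the gene. The gene spans chr11:32387775-32435564. This member ranked 65.1 to 95.7 in KO and 69.5 to 83.0 in rescue. Of the 52 list members 5 passed the limma test between KO and rescue, and all 5 were stronger in rescue. Of all members 14.6% were weaker and 10.5% stronger, and of all tested regions 8.6% and 9.42%. The 5 are a small count and were not tested against these shares. The 5 list members that passed included regions at ACTA2, smooth muscle actin (difference 0.62, limma adjusted p = 0.0133), COL6A3, a collagen (0.7, 0.0153), LOXL2 (0.52, 0.0238) and PDGFA, a growth factor (0.68, 0.0341). The ACTA2 region, at chr10:88951565-88952115, ranked 69.6 to 84.2 in KO and 83.7 to 95.8 in rescue.

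Members often lay near one another. Another member lay within 50 kb of 2598 members, a share of 41.1%. It was 35% in the larger set of 7361 regions with a peak in all 12 KO and rescue and 1 or 2 WT libraries. It was 37.8% in the smaller set of 2413 reversed regions, so nearness of this kind was not particular to members. Stretches of 5 or more members no more than 50 kb apart numbered 66 and held 464 members (7.35%), against 0.666% of that larger set and 4.85% of the 2413 reversed regions. Of 2915 windows of 1 Mb with a consensus region, 803 held no member and 50 held 10 or more. The windows with 10 or more, chosen by that count, held 660 members, or 10.4%. The densest window was chr4:182000001-183000000, with 28 members of 110 regions, of which 26 lay over TENM3. It was followed by chr12:126000001-127000000 (23 of 94, no coding gene), chr16:65000001-66000000 (22 of 79, with CDH11), chr1:240000001-241000000 (21 of 108, with FMN2 and RGS7) and chr7:37000001-38000000 (21 of 113, with ELMO1 and GPR141). The run with most members, at TENM3 (chr4:182093496-182370739), held 23 of its 48 consensus regions and only 2 regions with a peak in all 15 libraries. Runs of the same kind held 17 of 45 regions at chr12:115132102-115468472, where no coding gene lies, 13 of 23 in the run that holds FMN2 members and 13 of 32 at chr7:37303720-37488692, where 10 of the 13 members lie over ELMO1. At chr11:132719035-132908258, within OPCML, 12 of 21 regions were members. Regions with a peak in all 15 libraries were also read there, as their median strength against all such regions of the same library. For 340 such regions within several Mb of the TENM3 window, the shift was -2.0 to 0.3 points in WT libraries. It was 0.3 to 4.6 in KO and rescue libraries. For 381 such regions around the window with CDH11 the shifts were -2.2 to -0.0 and -3.4 to 0.5, so the values overlapped there. Fold enrichment is taken against the background around a peak, so these shifts do not measure copy number. The part of copy number in these clusters was not tested.

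AP-1 was the most common of 24 recognition sequences searched on both strands within 100 bp of the summit. It lay in 2048 members (32.4%), in 26.3% of the reversed regions, in 27.7% of the regions with a peak in all 15 libraries and in 23.2% of all consensus regions. Away from promoters its share was 33.1% in members and 32.1% in regions with a peak in all 15 libraries, a ratio of 1.03. It was 34.0% in regions with a peak in all 12 KO and rescue and in 1 or 2 WT libraries, 27.1% in reversed regions and 24.8% in all consensus regions away from promoters. It was more frequent in stronger members, rising over 5 equal groups of members by mean strength from 27.7% in the weakest through 30%, 32.8% and 34.0% to 37.7% in the strongest. Its matches sat at the summit: 8.66% and 9.39% of members had one centred in the 25 bp before and after it, against 0.364% to 0.554% in the bins 150 to 250 bp away. Regions with a peak in all 15 libraries gave 7.63% and 7.96%, against 0.378% to 0.515%. This placing was thus not particular to members. The share in members was thus near that of constant distal regions and above that of all distal consensus regions.

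The members differed from constant regions in the share of several sequences, and much less from the regions with a peak in all 12 KO and rescue and in 1 or 2 WT libraries. Away from promoters, FOX (TGTTTAC) lay in 7.01% of members and 3.62% of the regions with a peak in all 15 libraries, a ratio of 1.94. The ratio was 1.56 for the POU octamer (1.84% against 1.18%), 1.43 for the GATA factors (11.5% against 8.05%), searched as AGATAA. It was 1.35 for the SOX factors (AACAATG, 5.24% against 3.88%) and 1.3 for the RUNX factors (TGTGGTT, 13% against 10.0%). In the other direction stood CTCF (1.19% against 6.26%, ratio 0.19), the insulator factor, NF-kB (0.46% against 1.35%, ratio 0.341), SP/KLF (GGGCGGG, 1.31% against 3.15%, ratio 0.416) and the E-box of SNAI and ZEB (9.12% against 15.3%, ratio 0.596). In the regions with a peak in all 12 and in 1 or 2 WT libraries the shares were near those of members: 6.03% for FOX, 1.66% for the octamer, 10.3% for GATA, 4.85% for SOX, 11.8% for RUNX, 1.75% for CTCF, 0.597% for NF-kB, 1.52% for SP/KLF and 10.4% for the E-box. These traits are thus not particular to the members. Against the reversed regions a different group differed: the octamer lay in 1.84% of members and 4.55% of reversed regions, C/EBP in 11% and 19.3%, and NF-kB in 0.46% and 1.9%. FOX, GATA, RUNX and SOX lay closer together there, at 7.46%, 10.8%, 12.5% and 4.59% of reversed regions. Base composition moved with these shares: the median GC content away from promoters was 45.3% in members, 43.8% in reversed and 48.3% in constant regions. Its part in them was not tested. Other sequences were, with their share of members and of all consensus regions, TEAD (ACATTCC, 4.58% and 4.83%), the homeobox (TAATTA, 3.44% and 3.67%), the interferon response (3.37% and 3.07%), ETS (CCGGAAG, 1.3% and 1.77%), the p53 family (1.12% and 1.14%), STAT (TTCCNGGAA, 0.412% and 0.813%), the steroid receptors (0.412% and 0.356%), CRE (TGACGTCA, 0.317% and 0.352%), HNF4 (CAAAGTCCA, 0.222% and 0.271%), YY1 (AAGATGGCG, 0.0792% and 0.181%), NFI (0.0317% and 0.063%) and NRF1 (0 members and 0.0871%). A match is a string of letters and does not show that the factor was bound. The octamer and C/EBP strings can overlap by several letters, and 17 of the 112 members with an octamer also held a C/EBP string.

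**Figure D4:**
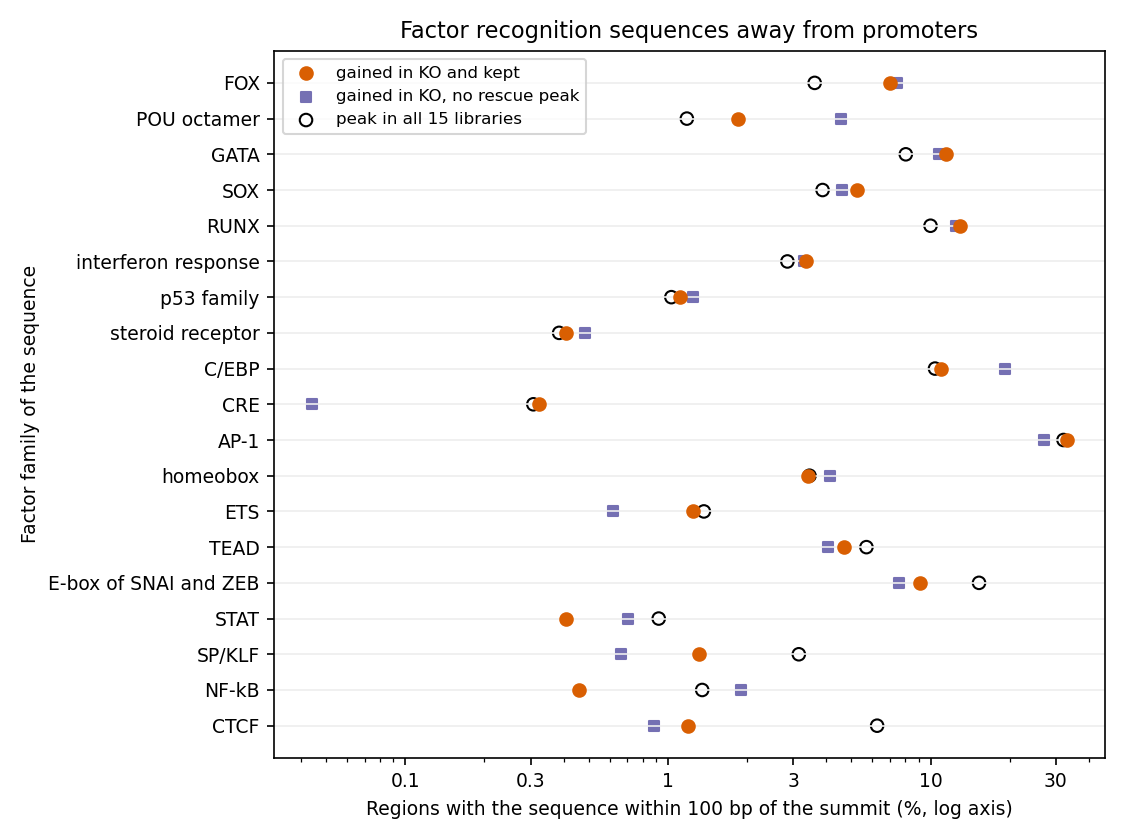
Share of regions away from promoters with each recognition sequence within 100 bp of the summit (horizontal log axis, %), for kept regions, regions gained in KO with no rescue peak, and regions with a peak in all 15 libraries. FOX, at 7.01% of kept and 3.62% of constant regions, stands farthest toward kept regions, and CTCF, at 1.19% and 6.26%, farthest away.

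The sequences also divided the members by how strong they were in each clone, a comparison added after the lists had been examined. For each library the median strength of members with a sequence was set against that of members without it. With the POU octamer (112 members) the difference was 5.4, 7.6 and 7.1 percentile points in KO1, 3.5, 4.8 and 0.9 in KO2, -4.7, -5.6 and -6.5 in Rescue1, and -5.9, -2.5 and -6.4 in Rescue2. All 6 KO libraries were above 0 and all 6 rescue libraries below. With NF-kB (27 members) it was 7.9 to 17 in KO (median 13.5) and -3.9 to 4.6 in rescue (median -0.1). With C/EBP (691 members) it was 1.1 to 5.8 (median 3.5) and -2.3 to 0.2 (median -0.4). The E-box of SNAI and ZEB (575 members) went the other way, from -4.4 to -1.3 in KO (median -2.7) to 0.0 to 2.2 in rescue (median 1.4). These 4 were the only ones among the 19 sequences with at least 20 members, or 21.1%, for which the KO and rescue ranges did not overlap. Among the regions with a peak in all 15 libraries, 4 of 19 (21.1%) did not overlap either, the same 4 and in the same directions, with differences between rescue and KO of -4.7 for the octamer, -4.95 for NF-kB, -2.51 for C/EBP and 3.69 for the E-box. The members gave -10.16, -13.23, -4.3 and 4.21. With AP-1 the ranges overlapped (1.5 to 6.4 in KO, 0.8 to 4.0 in rescue).

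**Figure D5:**
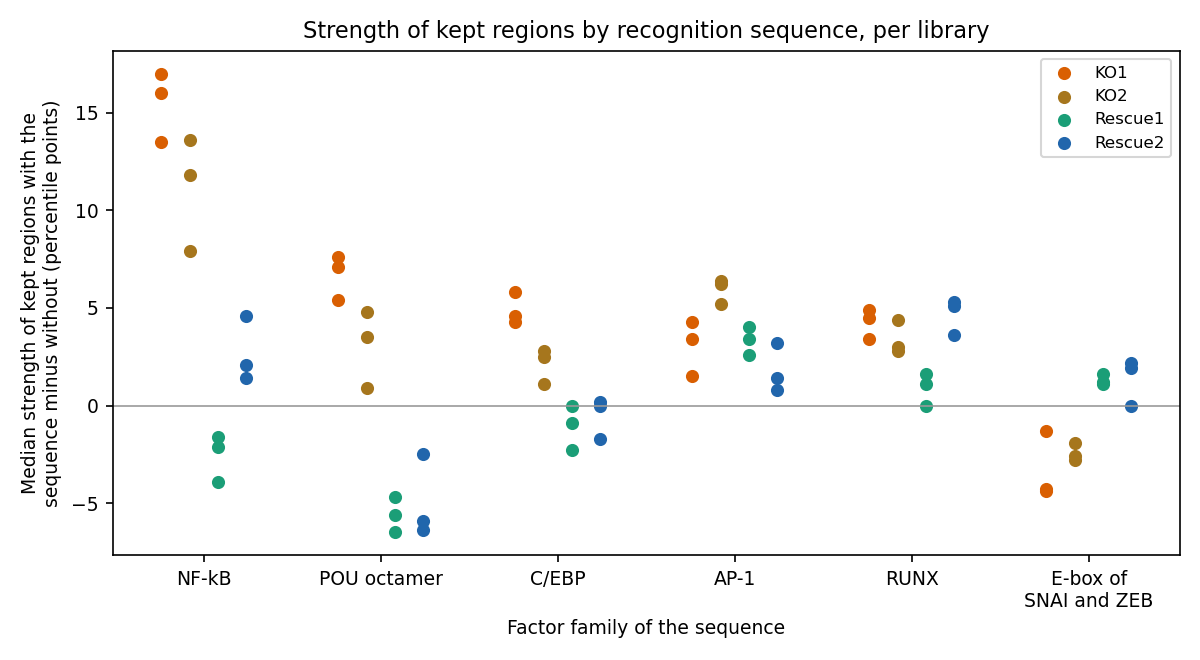
Median strength of kept regions with a recognition sequence minus that of kept regions without it (percentile points, vertical axis), 1 point per library coloured by clone. For the POU octamer the KO points lie at 0.9 to 7.6 and the rescue points at -6.5 to -2.5, while the ranges for AP-1 and RUNX overlap.

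The calls on single members, which use the same strengths, divided them in the same way. By limma with Benjamini-Hochberg adjustment 37 of the 112 members with an octamer (33.0%) and 8 of 27 with NF-kB (29.6%) were weaker in rescue, where 14.6% of all members were. So were 144 of 691 with C/EBP (20.8%), 328 of 2048 with AP-1 (16%) and 56 of 575 with the E-box (9.74%). Over all tested regions with these sequences the shares were 18.8%, 18.0%, 13.4%, 8.88% and 5.77%. Members were stronger in rescue in 94 of 575 cases with the E-box (16.3%, all tested regions with it 15.4%) and in 5 of 112 with the octamer (4.46%, 4.18%). The octamer member printed above, at the promoter of the non-coding gene MIR3945HG, ranked 58.9 to 96.9 in KO (median 84.2) and 3.0 to 51.7 in rescue (median 28.8), a difference of -2.13 (SE 0.371, adjusted p = 0.00132). The C/EBP member on chromosome 12 ranked 95.9 to 99.8 and 21.4 to 87.4 (difference -2.79, SE 0.413, adjusted p = 0.000406), and the NF-kB member ranked 89.5 to 95.9 and 26.4 to 74.3 (difference -1.9, SE 0.215, adjusted p = 5.09e-05). In each of these 3 the KO and rescue libraries did not overlap. The octamer member also held a C/EBP sequence and the C/EBP member AP-1 and RUNX sequences, so neither fall can be assigned to a single sequence.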

How the data were processed

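ATAC-seq peak lists of 15 RPTEC libraries were analysed. Per the labels 50,000 cells per library were treated with Tn5. The authors aligned reads to hg38 with BWA (version 0.7.17 in the submitters' processing notes) and called peaks per library with MACS2 2.2.7.1. Duplicate removal, a control and excluded regions are not given in the sources used here. The submitters' notes also name DiffBind 2.14.0, whose output was not used. The series text speaks of duplicates, while the labels list 3 libraries per group. The deposited lists give, per peak, a ratio (fold enrichment at the summit against the background around it), −log10 p and −log10 q against that background, a score derived from q, and the summit position. Fold enrichment depends on the depth of a library, so it was used only as a rank within its list.

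Peaks were merged and members chosen as described. The members and gene lists were chosen with earlier results of these data known. Features came from GENCODE 44 and sequence from hg38, whose contigs match the lists (99 of 99 names, 0 peaks past an end). Normal scores of ranks were fitted in limma 3.58.1 (R 4.3.3, lmFit and eBayes with trend, tested on simulated data) over the 118644 regions with a peak in all 12 KO and rescue libraries, with Benjamini-Hochberg adjustment at 0.05. Merging, annotation and sequence searches used bedtools 2.31.1, samtools 1.23.1, Python 3.11.15, pandas 2.3.3 and BLAST+ 2.17.0. A per-library median over members is given without a p. Named were the 10 strongest members, the 8 strongest at coding promoters, the 15 genes with most members and the 10 with the highest share, the 5 densest 1 Mb windows, and the 5 largest falls and rises past the threshold. The members with the largest fall for a given sequence, WT1, SOX5 and single list members were named after their values were seen. No 2 lists shared more than 0.131% identical intervals. Some listed genes and 1 recognition sequence are not reported here. The same replicate number did not pair libraries across clones. Alternatives were other peak thresholds, overlap rules, rank measures, promoter and sequence windows, single clones, a replicate block, and leaving out each library.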

Additional observations from a re-analysis of the deposited data

Results flagged for a closer look

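Between the rescue clones, 520 members differed in strength by limma (Benjamini-Hochberg adjusted, 4 clones as groups, 8.23% of members and 2.77% of all regions tested): 240 were lower and 280 higher in Rescue2. The GHR promoter, at 96.3 to 97.3 in Rescue1 and 75.6 to 90.9 in Rescue2, is an example of a region whose 3 libraries of each clone stood apart. Outside chromosomes 1 to 22, X and Y, on contigs that the rule leaves out, 8 of 926 regions had a peak in all 12 KO and rescue libraries and in no WT library. In 16 sets of 6 KO or rescue values, a search for a library far from the other 5 found 0.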

How the results depend on the processing

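The number of members was 4152 with the 150000 strongest peaks of each list and 9732 when 5 of 6 KO and 5 of 6 rescue libraries were enough, against 6316. It was 6286 with −log10 q of 2 or more, 5208 with peaks covering 50% of the region, and 6355 to 7823 with 1 library left out. The difference in median strength between rescue and KO, -0.772 percentile points, ran from -2.05 to 0.648 when 1 library was left out. It changed sign without KO2 replicate 3 (0.648) and without Rescue2 replicate 3 (0.017), and was -0.596 to -3.52 in the other settings. Weaker members numbered 567 with KO2 alone as KO (8.98%, all tested 3.71%), against 920 (14.6%, all tested 8.6%). With 1 library left out they numbered 773 to 872 (12.2% to 13.8%, all tested 6.77% to 8.69%). Stronger members numbered 373 with KO2 alone as KO (5.91%, all tested 4.44%), against 662 (10.5%, all tested 9.42%). They numbered 426 with Rescue2 alone as rescue (6.74%, all tested 5.47%), a setting added after seeing the data. With 1 library left out they numbered 552 to 701 (8.74% to 11.1%, all tested 7.71% to 9.46%). With 4 clones as groups the counts were 1260 weaker (19.9%, all tested 11.6%) and 968 stronger (15.3%, all tested 12.5%). Same-numbered libraries of different clones did not vary together (18 pairs, r of -0.106 to 0.0547, and 36 other pairs, -0.0505 to 0.1). With the replicate number as a block the counts were 861 weaker (13.6%, all tested 7.5%) and 598 stronger (9.47%, all tested 8.33%). The difference of medians stayed at -0.772 with that block. The promoter share was 11.9% with 2000 bp before and 500 bp after a start, 5.73% by the summit and 4.27% with coding starts, against 6.98%. The AP-1 share was 37.7% over the whole region, 26.3% within 50 bp of the summit and 34.0% in the lists of 150000 peaks, against 32.4%. Where no cause is stated by the setting itself, the cause was not tested. With peak lists and no reads, a region below the threshold has no value, so the size of the gain over WT could not be given. With 1 clone per group, a difference between clones and an effect of SETD2 cannot be told apart.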

Other observations

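Some members belonged to repeated sequences. The 201-bp window of 1084 members (17.2%) had a near copy among all consensus windows, at 75% identity or more over 70% of its length, as did 16.5% of the reversed regions and 17.2% of the regions with a peak in all 12 KO and rescue and in 1 or 2 WT libraries. In 432 members (6.84%) there were 100 or more such copies. The families of copies described next were chosen after their values were seen. Each was joined up from members that were near copies of one another, and its copies are these members and the consensus windows near to any of them. The share of members in a family is thus raised by construction, most in small families. It cannot be set against the share over all consensus regions. In the family with the second highest number of members, 38 of 485 copies (7.84%) were members, spread over 16 chromosomes, 5 of them with AP-1 and 0 at a promoter. In a small family 7 of 18 copies (38.9%) on 3 chromosomes were members with a median mean strength of 50.9, and 2 had a peak in all 15 libraries. The third by that number held 24 members among 1410 copies (1.7%). In the largest, 395 of 15173 copies (2.6%) were members. Whether reads that map to several copies were kept by the authors is not given in the sources used here, so single copies are uncertain.

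The share of weaker members differed by chromosome, from 5.0% on chromosome 22 (4 of 80) to 20.9% on chromosome 21 (14 of 67), while 7.79% and 8.92% of all tested regions on these chromosomes were weaker. These are small counts and no test was run on them.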
